A study of Mus musculus with 12 samples.

Results

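The genes described here are 39 genes that carry a secretory protein into the endoplasmic reticulum (ER), glycosylate and fold it there, and remove it when it does not fold. They were chosen by gene symbol, not by a measured value, and all 39 were found among the 25033 gene names of the deposited Ribo-seq table. They fall into 6 steps, with 9 translocon genes, 5 signal peptidase genes, 6 oligosaccharyltransferase genes, 7 folding genes, 8 degradation genes and 4 stress sensor genes. Ribo-seq counts the fragments of mRNA that ribosomes protect from RNase, and a value in such an assay depends on both the amount of mRNA and the ribosomes on it. Livers came from male C57BL/6 mice of 16 weeks, which had been on their diet for 8 weeks from an age of 8 weeks. The HFD group ate a high-fat diet, and the LYC group ate the same diet with lycopene, a red carotenoid of tomato. Lycopene appears in the sample titles and the study's methods, but the treatment field is the same for both groups and leaves it out. Each group had 3 Ribo-seq libraries, called HFD1 to HFD3 and LYC1 to LYC3, and no group on a normal diet is analysed here. The labels say that material of the groups was pooled before library construction, whereas the study calls the libraries of a group biological replicates. The sample titles give each library its own identifier, but not which animals it holds. The libraries of a group may thus share animals, and p-values then measure the spread between these libraries only.

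Most proteins that a hepatocyte secretes, such as albumin and the clotting factors, enter the ER through the Sec61 channel while they are being translated. Signal peptidase cuts off the signal peptide and the oligosaccharyltransferase adds N-linked glycans, after which the lectins calnexin and calreticulin and the protein disulfide isomerases help the chain to fold. Chains that stay unfolded are trimmed by mannosidases, pulled back through a channel of the Hrd1 and Derlin proteins and degraded by the proteasome (ER-associated degradation, ERAD), and the sensors Atf6, Ire1 (Ern1) and Perk (Eif2ak3) adjust the supply of these proteins to the load.

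Depth separated the groups. The RPKM steps implied 834410 to 4405541 reads per HFD library and 311050 to 412116 reads per LYC library, so that 1 read on a gene of 1 kilobase was worth 0.227 to 1.20 RPKM in HFD and 2.43 to 3.21 RPKM in LYC. The tested members rested on few reads in LYC, with a median sum of 69 against 824 in HFD, and the effect of depth and that of the diet cannot be told apart. The 6 libraries labelled RNA-seq gave no second readout. Over 7409 genes, the reads recovered from the Ribo-seq table equalled the RNA-labelled count exactly for 83.6% to 85.0% of genes when LYC libraries of the same number were set side by side. Ribo-seq HFD1, HFD2 and HFD3 matched the RNA-labelled HFD3, HFD1 and HFD2 libraries less exactly, with 25.9%, 15.0% and 48.6% of genes equal and 84.1% to 87.8% within 10% or 1 read, whereas no pairing other than these and the LYC ones exceeded 36.6% within that limit or 16.3% equal. Of the 234 member values, 108 were equal in both tables under this pairing. The RNA-labelled totals were 1.95, 2.18 and 1.94 times the Ribo-seq totals for LYC1, LYC2 and LYC3. For Ribo-seq HFD1, HFD2 and HFD3 they were 1.31, 1.15 and 1.24 times, and the cause was not tested. From the match per gene, the tables were read as 2 counts of the same reads, and translational efficiency was not computed. Which of the 2 assays those reads came from cannot be told from the tables, so values are called Ribo-seq only as labelled. All 7 hepatocyte markers passed the filter on low reads. Their summed level, scaled between libraries by TMM factors, was 34410 to 38490 RPKM in HFD and 26910 to 39630 RPKM in LYC. Of the 7, 1 was called higher in LYC and none lower. In whole liver, fewer cells of a type and less RNA per cell cannot be told apart.

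Across the whole set, levels in LYC lay mostly below those in HFD, but few differences passed the test. Of the 39 genes, 37 had enough reads to be tested, and Sec11c and Eif2ak3 did not. A gene was called where the absolute log2 fold change exceeded 1 with an unadjusted p below 0.01 (limma on log2 of TMM-scaled RPKM plus 1, two-sided). No member was called higher in LYC, beside 6.97% of all 5670 genes tested. Sec61a1, Syvn1 and Man1b1 were called lower, which is 3 of 37 (8.11%) beside 6.60% of all genes. A gene could pass the filter on low reads through either group alone. Syvn1 and Man1b1 did not reach its limit in all LYC libraries and passed through HFD, where they were higher. Their calls are therefore given as a description only. The share depended on the processing, with 5 of 37 members called lower (13.5%) beside 7.27% of all genes in edgeR and 6.93% in DESeq2 on recovered reads, and 10 of 37 (27.0%) beside 11.6% with total library size in place of the TMM factor. Of the members not called here, Sec61g was called higher in 5 of 20 processing settings, and in the lower direction Stt3b and Os9 were called in 4, Pdia4, Ern1, Sec63 and Spcs3 in 2, and Edem1, Spcs2 and Uggt1 in 1. At an unadjusted p below 0.05, 12 members were lower (all genes, 15.4%) and 1 was higher (all genes, 14.9%). The log2 fold change was below 0 for 32 of 37 members (86.5%) and for 55.1% of all genes, and its median was -0.51 for the members and -0.10 for all genes. With the trend on gene length removed, as described below, it was below 0 for 26 of 37 members (70.3%) and for 51.7% of all genes. With 3 libraries against 3, an exact permutation test of a single gene cannot go below p = 0.1.

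After scaling, the 3 LYC libraries lay below the 3 HFD libraries for 12 of 37 members (32.4%), beside 19.4% of all genes, and above them for 2 (Sec61g and Spcs1), beside 18.7% of all genes. In either direction, the groups did not overlap for 14 of 37 members, beside 38.0% of all genes. On the RPKM values as deposited, which no TMM factor corrects, the LYC libraries lay below for 20 of 37 members (54.1%), beside 27.6% of all genes, and above for 1 (Sec61g), beside 10.0% of all genes. The values printed below are the deposited RPKM, the fold changes are those of the scaled values, and whether groups overlap is said for the scaled values unless stated otherwise. The median log2 fold change was -0.07 for the translocon, -0.57 for the 4 tested signal peptidase genes, -0.38 for the oligosaccharyltransferase, -0.03 for folding, -0.76 for degradation and -0.73 for the 3 tested stress sensor genes.

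**Figure D1:**
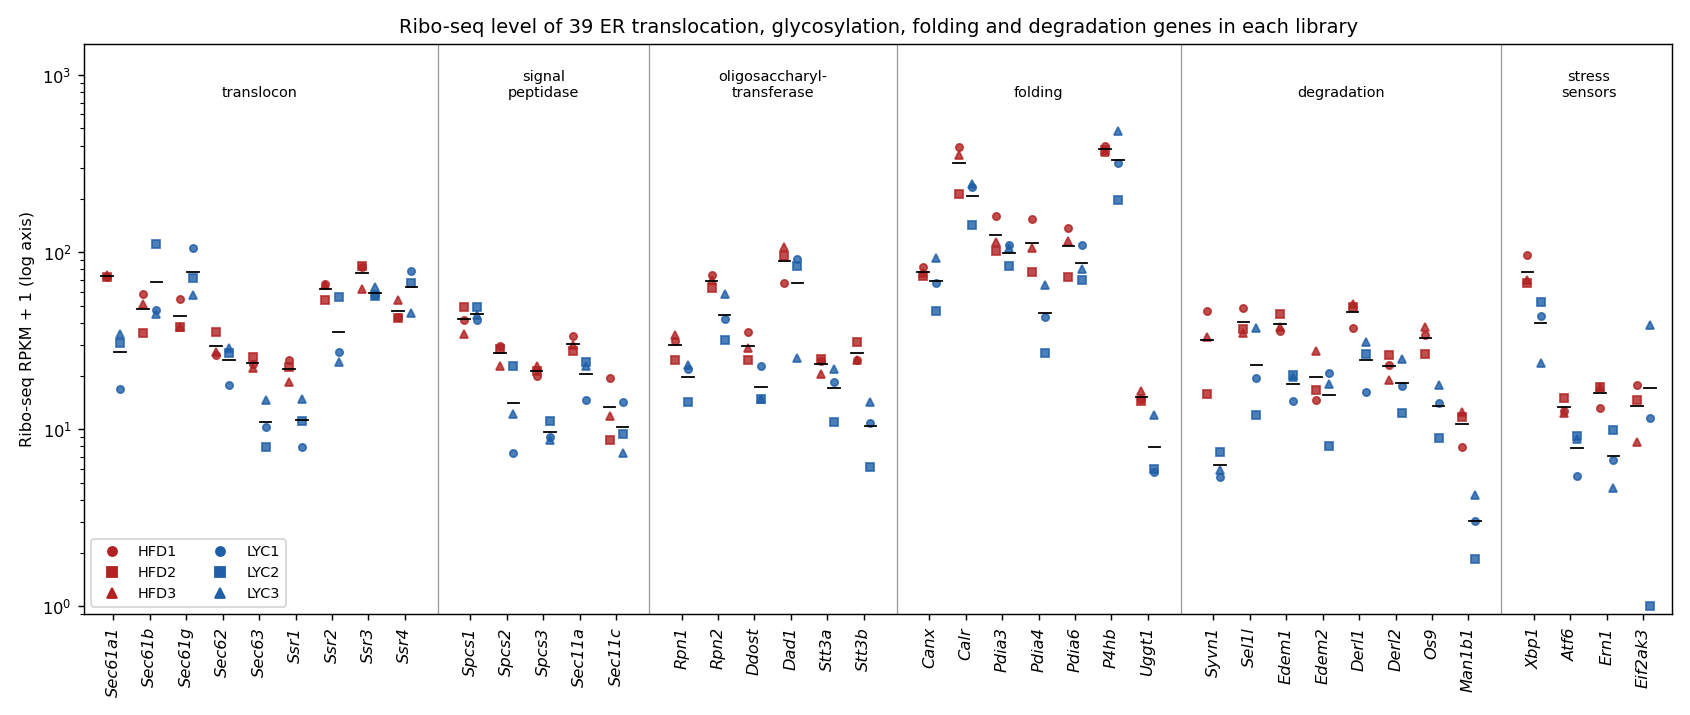
Ribo-seq RPKM plus 1 (vertical log axis) of the 39 genes (horizontal axis, by step) in the 3 HFD libraries (red) and the 3 LYC libraries (blue), with the group means as black bars; a value of 0 sits at 1. P4hb and Calr had the highest means in both groups, the Syvn1 and Man1b1 libraries of LYC all lay below those of HFD, and the Sec61g libraries of LYC all lay above.

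**Figure D2:**
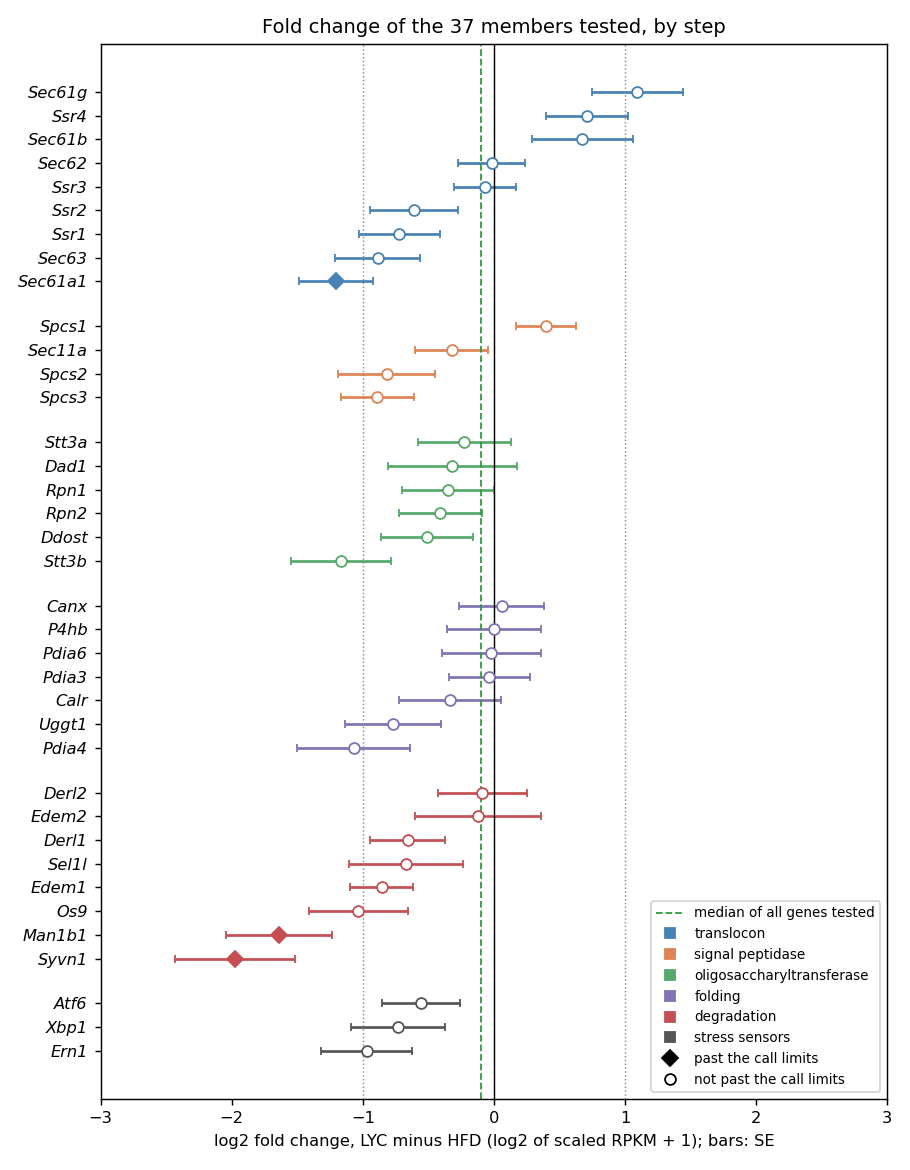
Log2 fold change of LYC minus HFD with its SE (horizontal axis) for the 37 tested genes, by step; filled diamonds passed the call limits, dotted lines mark a log2 fold change of -1 and 1, and the dashed line is the median of all genes tested. All 8 degradation genes and all 6 oligosaccharyltransferase genes lay below 0, and 3 genes (Sec61a1, Syvn1, Man1b1) passed the limits.

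Several of these genes carry in their promoters the letters that ER stress factors are known to bind, and the matches are shown because one of them lies just upstream of Syvn1, the member with the largest fold change. Promoters of 250 bases before to 50 bases after the transcription start were taken from RefSeq on GRCm38.p6, and 33 of the 39 members had one, the others being Sec61a1, Ssr2, Spcs3, Sec11c, Derl1 and Atf6. The ER stress element (ERSE, the letters CCAAT and CCACG with any 9 bases between them, searched on both strands) was present in 4 of 33 members (12.1%) and in 37 of 27025 genes with a promoter (0.137%). Neither ERSE-II (ATTGG and CCACG with 1 base between them, 0.0444% of genes) nor the unfolded protein response element (TGACGTGG, 0.714% of genes) was found in a member. The 4 matches are given with 20 bases on each side, in the direction of the gene, with the element in capitals. The element lay at positions -44 to -26 from the start of Syvn1 (chr19:6046512-6046570, plus strand), -98 to -80 of Pdia6 (chr12:17266471-17266529, plus strand), -145 to -127 of Canx (chr11:50325780-50325838, minus strand) and, in the reverse orientation, -162 to -144 of Calr (chr8:84847055-84847113, minus strand).
Syvn1: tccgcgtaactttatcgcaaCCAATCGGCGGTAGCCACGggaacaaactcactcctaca
Pdia6: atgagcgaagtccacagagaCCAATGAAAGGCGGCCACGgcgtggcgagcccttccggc
Canx: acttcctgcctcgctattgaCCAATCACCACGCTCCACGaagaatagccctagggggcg
Calr: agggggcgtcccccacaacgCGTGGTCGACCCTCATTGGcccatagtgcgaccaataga
The log2 fold changes of the 4 genes were -1.97 for Syvn1, -0.33 for Calr, -0.02 for Pdia6 and 0.06 for Canx, so genes that share the element ranged from the lowest of the tested members to one of the 5 above 0. The median of these 4 was -0.18, and that of the 28 tested members with a promoter and no such element was -0.38.

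Of the translocon genes, Sec61a1 was called lower and none was called higher. Sec61a1 encodes the pore-forming alpha subunit of the channel, and Sec61b and Sec61g encode its small beta and gamma subunits. Sec61a1 (chr6:88503579-88518905, minus strand) measured 71.2, 71.7 and 73.0 RPKM in HFD1, HFD2 and HFD3 and 15.8, 29.6 and 33.5 RPKM in LYC1, LYC2 and LYC3. The HFD libraries were nearly equal, and every LYC library lay well below the lowest of them. The mean was 72.0 ± 0.899 RPKM (SD, n = 3) in HFD and 26.3 ± 9.29 RPKM (SD, n = 3) in LYC, with a log2 fold change of -1.20 (SE 0.285, limma adjusted p = 0.0294). The call was lost without HFD1, without HFD3 or without LYC1, where the log2 fold change ranged over -1.43 to -0.96 among all fits that left out 1 library. Sec61g measured 53.7, 37.0 and 36.9 RPKM in HFD and 104, 70.2 and 56.1 RPKM in LYC, the opposite order, with a log2 fold change of 1.09 (SE 0.348). Its groups did not overlap, but it missed the limit on p (limma adjusted p = 0.0747). It was called in 5 of 20 settings, among them edgeR and DESeq2 on recovered reads and the fits without HFD1 or without LYC3. Sec61b measured 57.1, 34.1 and 49.9 RPKM in HFD and 45.9, 111 and 44.0 RPKM in LYC, where LYC2 was the highest and the groups overlapped.

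Sec62 and Sec63 assist the channel with short and weakly recognised signal peptides, Sec63 by recruiting the chaperone BiP. Sec63 measured 22.3, 24.4 and 21.3 RPKM in HFD and 9.25, 6.93 and 13.7 RPKM in LYC. Its groups did not overlap, and its log2 fold change of -0.89 (SE 0.325, limma adjusted p = 0.111) did not pass. Sec62 overlapped, with a log2 fold change of -0.02 (SE 0.256).

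The translocon-associated protein complex, encoded by Ssr1 to Ssr4, sits beside the channel and helps certain chains to enter. Ssr1, its alpha subunit, measured 23.6, 21.5 and 17.4 RPKM in HFD and 6.94, 10.2 and 13.8 RPKM in LYC, so that the LYC libraries lay below the HFD libraries without overlap (log2 fold change -0.72, SE 0.309, limma adjusted p = 0.156). Ssr4, the delta subunit, measured 41.9, 41.6 and 52.4 RPKM in HFD and 77.0, 66.4 and 44.2 RPKM in LYC, so that LYC1 and LYC2 were high and LYC3 fell within the HFD range (log2 fold change 0.71, SE 0.313). Ssr2 and Ssr3, the beta and gamma subunits, overlapped, with log2 fold changes of -0.61 (SE 0.335) and -0.07 (SE 0.236).

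Signal peptidase joins a catalytic subunit, Sec11a or Sec11c, to the accessory subunits Spcs1, Spcs2 and Spcs3. Spcs3, which the catalytic activity requires, measured 18.9, 20.4 and 21.8 RPKM in HFD and 8.05, 10.2 and 7.70 RPKM in LYC. The groups stood well apart and each varied little, but the log2 fold change of -0.89 (SE 0.276, limma adjusted p = 0.0698) missed both limits. Spcs2 measured 28.7, 27.5 and 21.7 RPKM in HFD and 6.30, 21.7 and 11.2 RPKM in LYC, with LYC2 at about the level of HFD3. Spcs1 was nearly level, at 40.5, 48.3 and 33.4 RPKM in HFD and 40.3, 47.9 and 43.4 RPKM in LYC. Its LYC libraries lay above the HFD libraries only after scaling (log2 fold change 0.40, SE 0.228). Of the catalytic subunits, Sec11a measured 29.4 ± 3.07 RPKM in HFD and 19.5 ± 5.12 RPKM in LYC (SD, n = 3 each; log2 fold change -0.32, SE 0.280). Sec11c measured 12.4 ± 5.61 RPKM in HFD and 9.27 ± 3.53 RPKM in LYC on 72 and 8 reads, too few to be tested.

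The oligosaccharyltransferase transfers a preformed glycan to asparagine. Stt3a and Stt3b are the alternative catalytic subunits, of which the Stt3a complex works on chains still entering the channel and the Stt3b complex reaches sites that were skipped, and Rpn1, Rpn2, Ddost and Dad1 are shared subunits. Stt3b measured 23.6, 30.3 and 23.5 RPKM in HFD and 9.84, 5.14 and 13.3 RPKM in LYC. All 3 LYC libraries were lower (log2 fold change -1.17, SE 0.378), but the limit on p was missed (limma adjusted p = 0.0785). It was called with total library size, in edgeR and DESeq2 on recovered reads and without LYC3. Stt3a measured 23.2, 24.1 and 19.6 RPKM in HFD and 17.5, 9.96 and 20.9 RPKM in LYC, and the groups overlapped (log2 fold change -0.22, SE 0.351). The shared subunits had log2 fold changes of -0.35 (Rpn1, SE 0.348), -0.41 (Rpn2, SE 0.314), -0.51 (Ddost, SE 0.349) and -0.32 (Dad1, SE 0.493), and none passed. The sign of Dad1 rested on LYC3, which measured 24.4 RPKM on 7 reads, whereas LYC1 and LYC2 measured 90.9 and 83.0 RPKM beside 65.8 to 107 RPKM in HFD. Without LYC3 its log2 fold change was 0.26.

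The folding genes had a median log2 fold change of -0.03. P4hb, the founding protein disulfide isomerase, had the highest mean of all members in both groups, 380 ± 14.6 RPKM in HFD and 331 ± 142 RPKM in LYC (SD, n = 3 each). Its HFD libraries lay between 367 and 396 RPKM, whereas LYC1, LYC2 and LYC3 measured 317, 197 and 480 RPKM, so the LYC libraries bracketed the HFD range (log2 fold change -0.00, SE 0.357). Calr, the soluble lectin chaperone, measured 392, 211 and 355 RPKM in HFD and 234, 142 and 241 RPKM in LYC. Canx, its membrane-bound relative, measured 81.6, 72.3 and 75.4 RPKM in HFD and 65.6, 45.7 and 92.2 RPKM in LYC. Both overlapped between groups. Pdia3, the isomerase that works with both lectins, and Pdia6 overlapped too, with log2 fold changes of -0.03 (SE 0.309) and -0.02 (SE 0.375).

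Pdia4 and Uggt1 had the lowest log2 fold changes of the folding genes. Pdia4, a disulfide isomerase with an additional catalytic domain, measured 154, 76.0 and 105 RPKM in HFD and 41.9, 25.9 and 64.6 RPKM in LYC. The deposited values did not overlap, LYC3 reached HFD2 once scaled, and the log2 fold change of -1.07 (SE 0.433, limma adjusted p = 0.139) was not called, but with total library size it was (-1.35). Uggt1, the glucosyltransferase that returns unfolded glycoproteins to the lectins, measured 13.7, 13.5 and 15.4 RPKM in HFD and 4.77, 4.98 and 11.0 RPKM in LYC. LYC1 and LYC2 were low and LYC3 was close to HFD (log2 fold change -0.77, SE 0.368).

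The degradation genes had a median log2 fold change of -0.76, or -0.58 with the length trend removed. The 29 tested degradation genes of the wider list described further on had a median of -0.29, or -0.0005 with that trend removed. Of these 29, 17 were below 0 and 12 above in the main fit. All 8 members had log2 fold changes below 0 (all genes, 55.1%), and 7 of the 8 with the length trend removed (all genes, 51.7%). For 5 of the 8 every LYC library lay below the HFD libraries (all genes, 19.4%), and Syvn1 and Man1b1 were called (all genes, 6.60% lower). Syvn1 (chr19:6046576-6053712, plus strand) encodes Hrd1, the ubiquitin ligase of the retrotranslocation channel, and its promoter element was given above. It measured 45.7, 14.8 and 32.1 RPKM in HFD1, HFD2 and HFD3 and 4.38, 6.49 and 4.89 RPKM in LYC1, LYC2 and LYC3. The HFD libraries differed among themselves, and even the lowest, HFD2, lay above every LYC library. The mean was 30.9 ± 15.5 RPKM in HFD and 5.25 ± 1.10 RPKM in LYC (SD, n = 3 each), with a log2 fold change of -1.97 (SE 0.456, limma adjusted p = 0.0273), and it was called whichever library was left out (-2.51 to -1.60). Only 6, 7 and 7 reads stood behind the LYC values, against 432, 226 and 93 behind those of HFD.

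Man1b1 (chr2:25332338-25352212, plus strand), an alpha-mannosidase that trims glycans of misfolded proteins, had the lowest mean RPKM of the members in both groups. It measured 6.96, 10.7 and 11.5 RPKM in HFD and 2.03, 0.859 and 3.24 RPKM in LYC. Every LYC library lay below every HFD library, but on 3, 1 and 5 reads. Man1b1 passed the filter on low reads through HFD alone. The log2 fold change was -1.64 (SE 0.407, limma adjusted p = 0.0346), and the call was lost without HFD2 or without HFD3 (-1.95 to -1.27 over the fits that left out 1 library).

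Os9, a lectin that delivers trimmed glycoproteins to the ligase complex, measured 33.2, 25.5 and 36.7 RPKM in HFD and 13.1, 7.94 and 16.8 RPKM in LYC. Edem1, a mannosidase-like protein that speeds the disposal of glycoproteins, measured 34.7, 43.6 and 36.6 RPKM in HFD and 13.4, 19.2 and 18.6 RPKM in LYC. Derl1, a channel protein, measured 36.2, 48.2 and 50.3 RPKM in HFD and 15.3, 25.6 and 30.1 RPKM in LYC. For these 3 genes the groups did not overlap, yet none was called. Os9 passed the limit on fold change only (log2 fold change -1.03, SE 0.377, limma adjusted p = 0.109) and Edem1 that on p only (log2 fold change -0.85, SE 0.241, limma adjusted p = 0.0527), whereas Derl1 passed neither (log2 fold change -0.66, SE 0.287). Os9 was called with total library size and in edgeR and DESeq2 on recovered reads, and Edem1 with total library size. The relatives Edem2 and Derl2 overlapped, at -0.12 (SE 0.481) and -0.09 (SE 0.338). Sel1l, the partner that stabilises Hrd1, measured 47.4, 36.0 and 34.1 RPKM in HFD and 18.5, 11.0 and 36.3 RPKM in LYC, with LYC3 at the level of HFD2 and HFD3 (log2 fold change -0.67, SE 0.436).

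Among the stress sensor genes, Ern1 and Atf6 were at lower levels than Xbp1. Ern1, whose kinase and endonuclease splices Xbp1 mRNA, measured 12.3, 16.3 and 16.3 RPKM in HFD and 5.74, 8.89 and 3.66 RPKM in LYC. Atf6, a membrane-tethered transcription factor, measured 11.6, 14.1 and 11.4 RPKM in HFD and 4.42, 8.18 and 7.80 RPKM in LYC. The groups did not overlap for either gene, and the log2 fold changes of -0.97 (Ern1, SE 0.347) and -0.56 (Atf6, SE 0.297) were not called. Xbp1, the transcription factor made from the spliced mRNA, measured 94.8, 66.4 and 68.3 RPKM in HFD and 42.9, 51.5 and 22.7 RPKM in LYC. Its deposited values did not overlap, its scaled values did, and the log2 fold change was -0.73 (SE 0.356). A value per gene does not tell the spliced from the unspliced form. Eif2ak3, the kinase Perk, measured 16.7, 13.6 and 7.45 RPKM in HFD and 10.5, 0 and 37.7 RPKM in LYC, from the lowest to the highest value of the gene within 1 group. Its RPKM steps fitted a length of 965 bases, shorter than its coding length of 3342 bases, so its level is not compared with the others.

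Per kilobase of coding sequence, with reads of untranslated regions still counted, the order of the members in HFD was headed by P4hb (711 ± 27.4 on the RPKM scale), Calr (497 ± 149) and Ssr3 (390 ± 63.1, SD, n = 3 each). The HFD libraries of P4hb all lay above those of Calr, whereas Calr and Ssr3 overlapped. In LYC the same 3 genes led, at 621 ± 266, 320 ± 85.6 and 302 ± 18.8, and here neither P4hb and Calr nor Calr and Ssr3 were separated. Sec61g followed in LYC at 293 ± 94.4, having been in place 10 in HFD at 162 ± 36.9. Sec61a1 went the other way, from 153 ± 1.91 in HFD (place 11) to 56.0 ± 19.8 in LYC (place 21).

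A ratio between members within 1 library does not depend on the scaling between libraries. Ratios were taken for 14 pairs chosen after their values were seen, and the values are a description with no test. The groups did not overlap for 7 of the 14, beside 36.9% of all pairs of tested genes above 0 in every library. The ratio of Sec61g to Sec61a1 was 0.754, 0.516 and 0.506 in HFD and 6.57, 2.37 and 1.67 in LYC, without overlap. On these RPKM values the gamma subunit lay below the alpha subunit in every HFD library, but per kilobase of coding sequence its HFD mean was already the higher one (162 against 153), so which of the 2 was higher in HFD depends on the length used. Sec61b to Sec61a1 gave 0.803, 0.476 and 0.685 in HFD and 2.90, 3.74 and 1.31 in LYC, and here the beta subunit had the lower mean in HFD and the higher mean in LYC per kilobase of coding sequence as well (90.2 against 153 and 128 against 56.0). Stt3b to Stt3a gave 1.02, 1.26 and 1.20 in HFD and 0.564, 0.516 and 0.637 in LYC, without overlap. Per kilobase of coding sequence Stt3b had the lower mean in both groups (45.8 against 61.2 in HFD and 16.7 against 44.2 in LYC), so its ratio to Stt3a was lower in LYC while the order of the means did not change on that scale. Pdia4 to P4hb gave 0.388, 0.202 and 0.285 in HFD and 0.132, 0.132 and 0.134 in LYC, nearly the same value in each LYC library although both genes varied there. Spcs1 to Spcs3 gave 2.14, 2.37 and 1.53 in HFD and 5.01, 4.7 and 5.64 in LYC. Ssr4 to Ssr1 and Pdia4 to Pdia6 were the other pairs without overlap. Syvn1 to its partner Sel1l overlapped, with 0.964, 0.411 and 0.942 in HFD and 0.236, 0.591 and 0.135 in LYC.

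**Figure D3:**
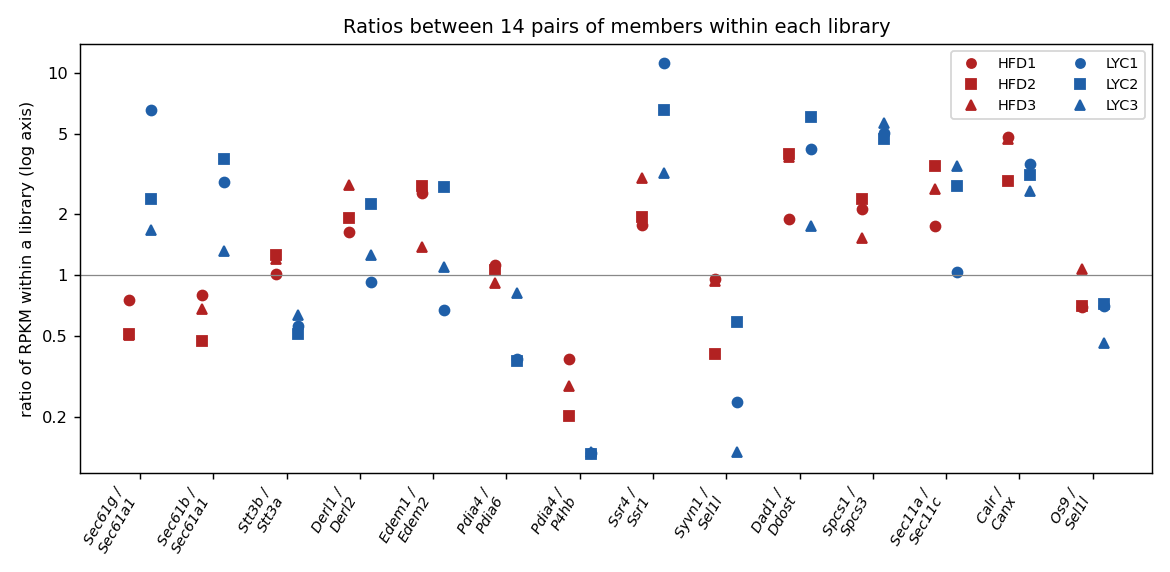
Ratio of RPKM between 14 pairs of members (horizontal axis) within each library (vertical log axis), for HFD (red) and LYC (blue) libraries. For Sec61g to Sec61a1 the HFD libraries lay between 0.506 and 0.754 and the LYC libraries between 1.67 and 6.57, and for Stt3b to Stt3a the LYC libraries all lay below 1.

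Of the 5 members above 0, 4 were short genes, the other being Canx with 4289 bases. Sec61b, Sec61g and Ssr4 had lengths of 552, 779 and 823 bases and Spcs1 1006 bases, whereas Sec61a1, Syvn1 and Man1b1 had 3039, 3470 and 3742 bases. Over the 37 tested members, the log2 fold change and the gene length had a Spearman rho of -0.50, and over all 5670 genes one of -0.24, both across genes that share the same libraries. In the shortest class, up to 1500 bases, the median log2 fold change was 0.40 for 7 members and 0.30 for all genes. Above 3000 and up to 5000 bases it was -0.89 for 13 members and -0.19 for all genes, and above 5000 bases -0.72 for 6 members and -0.29 for all genes. After each library's trend on length was removed, Sec61a1, Syvn1 and Man1b1 were still called (all genes, 6.21% lower), with log2 fold changes of -1.11, -1.84 and -1.48, and the median of the members was -0.46 beside -0.03 for all genes. The log2 fold changes of Sec61g, Ssr4, Sec61b and Spcs1 were then 0.74, 0.37, 0.15 and 0.14. Length moved with the fold changes in all genes, and its part in the ratios above was not tested.

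**Figure D4:**
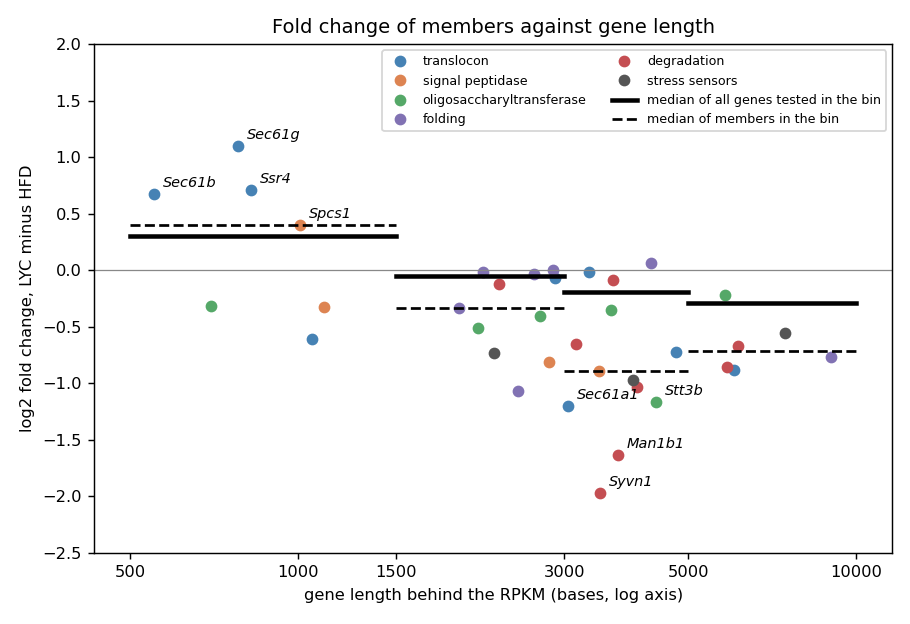
Log2 fold change of LYC minus HFD (vertical axis) against the gene length behind the RPKM (horizontal log axis, bases) for the 37 tested members, coloured by step; solid bars are the medians of all genes in 4 length classes and dashed bars those of the members, the outer classes being open-ended. The members' median was above that of all genes in the shortest class and below it in the other 3.

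The HFD libraries differed in these genes too. After scaling, HFD2 was the lowest HFD library for 25 of 37 members (67.6%), beside 31.6% of all genes, and the highest for 2 (5.41%), beside 31.7%. On the RPKM as deposited, a comparison added after the data were seen, HFD2 was the lowest for 16 of 37 members (43.2%), beside 11.3% of all genes, and the highest for 10 (27.0%), beside 64.3%. The gap differed between members. Between HFD1 and HFD2 the deposited RPKM differed 3.09-fold for Syvn1, 2.02-fold for Pdia4, 1.89-fold for Pdia6, 1.86-fold for Calr, 1.67-fold for Sec61b and 1.58-fold for Pdia3, and 2.42-fold for the untested Sec11c, whereas the median gene had a ratio of HFD1 to HFD2 of 0.821. The ratio exceeded 1.5 for 6 of 37 members (16.2%) and 3.12% of all genes. Of the wider list of this pathway described further on, the ratio exceeded 1.5 for 11 of 112 tested genes (9.82%), and 9 of these were among its 39 folding genes (23.1%). It exceeded 1 for 23 of those 39 genes (59.0%), beside 22.8% of all genes, so the others had the opposite order. The values of 2 of them, chosen after they were seen, follow. Hspa5, which encodes the chaperone BiP, measured 492, 174 and 285 RPKM in HFD and 248, 197 and 197 RPKM in LYC, and Hsp90b1, which encodes Grp94, 296, 157 and 203 RPKM in HFD and 191, 149 and 221 RPKM in LYC. For both, every LYC library lay within the HFD range once scaled, and the log2 fold changes were -0.16 (SE 0.425) and 0.09 (SE 0.346). HFD2 was also the deepest library and had the largest TMM factor, 1.26, and the part of either in this order was not tested. Among the LYC libraries, again after scaling, LYC2 was the lowest for 19 of 37 members (all genes, 35.4%) and LYC3 the highest for 19 (all genes, 33.2%). The coefficient of variation of a member had a median of 16.5% in HFD and 34.4% in LYC.

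**Figure D5:**
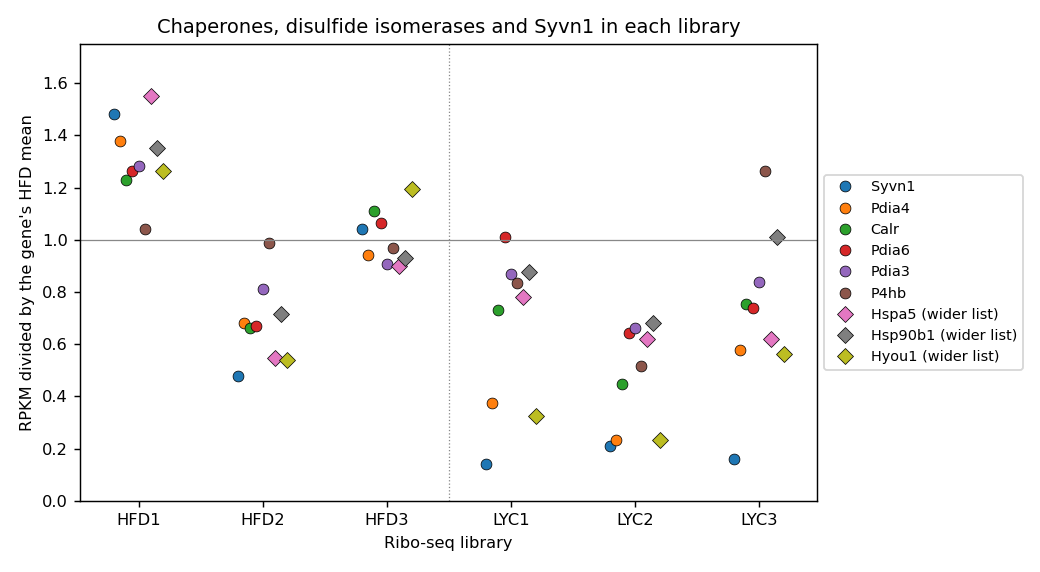
RPKM of 6 members (circles) and 3 chaperones of the wider list (diamonds) in each Ribo-seq library, divided by the gene's mean over the HFD libraries (vertical axis). The genes (Syvn1, Pdia4, Calr, Pdia6, Pdia3, P4hb, Hspa5, Hsp90b1 and Hyou1) were chosen after their values were seen, most of them for a high HFD1 and a low HFD2, so that order is set by the choice. Among them Syvn1 was the lowest in every LYC library.

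A wider list of 166 other genes of the same pathway, of which 112 had enough reads to be tested, had a median nearer to 0. The median log2 fold change was -0.22, 4 genes were called higher (3.57%) and 8 lower (7.14%), beside 6.97% and 6.60% of all genes. Of 19 tested translocon genes 1 was called higher and 2 lower, of 3 signal peptide processing genes 1 lower, of 12 glycan synthesis and transfer genes 1 higher and 3 lower, of 39 folding genes 1 higher, of 29 degradation genes 1 higher and 1 lower, and of 10 stress signalling genes 1 lower. The called genes included other subunits of the complexes above. Ostc, a subunit that ties the Stt3a complex to the translocon, measured 41.8, 29.3 and 48.5 RPKM in HFD and 16.7, 12.1 and 9.14 RPKM in LYC (log2 fold change -1.32, SE 0.374, limma adjusted p = 0.0544). Krtcap2, a subunit of the same complex, went the opposite way, with 44.7, 26.5 and 25.4 RPKM in HFD and 58.2, 114 and 55.7 RPKM in LYC (1.46, SE 0.348, limma adjusted p = 0.0303). Dpagt1, which starts the glycan precursor, measured 12.0, 9.36 and 8.60 RPKM in HFD and 1.14, 1.44 and 2.18 RPKM in LYC, on 4 reads in all in LYC (-1.88, SE 0.326). The groups did not overlap for any of these 3 genes. Alg10b, which adds the last glucose to that precursor, was lower as well (-1.31, SE 0.392).

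Emc6 and Emc10, of the ER membrane protein complex that inserts membrane proteins, were lower with log2 fold changes of -1.62 (SE 0.323) and -1.70 (SE 0.307). H13, the signal peptide peptidase, measured 100, 70.8 and 118 RPKM in HFD and 34.7, 23.5 and 31.0 RPKM in LYC (-1.37, SE 0.344), without overlap. Mbtps1, the protease that activates Atf6, was lower by 1.86 on the log2 scale (SE 0.499), and Faf2, which brings the extracting ATPase to the membrane in ERAD, by 1.17 (SE 0.330). Sdf2, a partner of an ER co-chaperone, was higher (1.63, SE 0.326), as was Herpud1, an ER stress target that scaffolds the Hrd1 complex (1.02, SE 0.30), with 112, 121 and 148 RPKM in HFD and 230, 278 and 146 RPKM in LYC. LYC3 of Herpud1 lay just within the HFD range before scaling. Srp54b, of the signal recognition particle, was higher too (1.37, SE 0.338), but it has near-identical copies among which reads can be split, so its value is uncertain. With 1 library left out at a time, Emc6, Emc10 and Sdf2 were called in all 6 fits, Krtcap2 and Srp54b in 4 and H13 in 3. Ostc, Herpud1, Faf2 and Mbtps1 were called in 2, Alg10b in 1, and Dpagt1 in the 3 fits in which it had enough reads. In the main fit Dpagt1, Emc6, Ostc and Alg10b passed the filter on low reads through HFD, and Krtcap2 and Sdf2 through LYC, in each case the group where they were higher. For such genes the number of fits is no measure of stability. With the length trend removed, 3 genes of the wider list were called higher (all genes, 6.51%) and 6 lower (5.36%, beside 6.21% of all genes). Krtcap2 (0.95), Herpud1 (0.99), Alg10b (-1.16) and Faf2 (-0.99) were then no longer called, and Eif2s1, which encodes the alpha subunit of the translation factor that Perk phosphorylates, was called higher (1.21).

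In the recount labelled RNA-seq, which was read as a second count of the same reads, an edgeR quasi-likelihood test called 1 of 37 members higher (all genes, 9.31%) and 5 lower (all genes, 7.33%). The 5 were Sec61a1, Stt3b, Syvn1, Os9 and Man1b1, with log2 fold changes of -1.14, -1.07, -2.30, -1.03 and -1.84, and the 1 was Sec61g with 1.17. This repeats the measurement on the same libraries and is no second sample. Of the members, 16 overlap another annotated gene, for which the sources used here give no strand setting. Mrpl49 lies on the other strand at Syvn1, Gm44170 at Sec61a1 and AA543186 at Man1b1, and reads of such pairs cannot be told apart here. Among markers of other liver cells, none of the tested genes of Kupffer, endothelial or stellate cells was called. Their summed levels were scaled by the TMM factors. For Kupffer cells they were 119.7 to 130.8 RPKM in HFD and 123.5 to 173.3 RPKM in LYC. Stellate cells gave 81.0 to 153 RPKM in HFD and 101 to 132 RPKM in LYC. Endothelial cells gave 58.7 to 80.8 RPKM in HFD and 13.9 to 139 RPKM in LYC, the latter on 20 to 224 reads. Jchain, Mzb1, Cd79a and Cd79b of B and plasma cells, whose ER is abundant, were at 0 in every LYC library. All LYC reads of this list lay on the other markers, Ms4a1 and Sdc1. The summed level of the 6 B and plasma cell markers, scaled by the TMM factors, was 43.4 to 53.6 RPKM in HFD and 19.7 to 63.9 RPKM in LYC. The share of all genes at 0 in every LYC library was not computed. Krt19, Krt7 and Epcam of cholangiocytes were at 0 in every LYC library as well, so that all LYC reads of this list lay on Sox9 and Spp1. The summed level of the 5 cholangiocyte markers, scaled in the same way, was 15.0 to 23.7 RPKM in HFD and 3.61 to 9.21 RPKM in LYC, without overlap. These sums rest on 29 to 198 reads in HFD and 3 to 7 reads in LYC for cholangiocytes, and on 120 to 887 and 19 to 61 reads for B and plasma cells. None of the 5 and 1 of the 6 markers passed the filter on low reads. The part of these cells in the members' values was not tested.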

How the data were processed

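Ribo-seq libraries of HFD and LYC livers (3 each) were analysed by the sample titles. For the deposited RPKM table (reads per kilobase of gene, relative to the library total), the authors trimmed and filtered reads (cutadapt, Bowtie2, per the labels), mapped them to mm10 with STAR and quantified them with FANSE2. The deposited counts of the table labelled RNA-seq were used only as a recount. Whole reads were recovered from RPKM steps on the other table's gene length (11019 genes) or a fitted length (4728 genes), with 2 genes not whole to within 0.05 reads. Of the members, 11 had fitted lengths, and whole multiples of the shortest fitting length cannot be told apart.

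RPKM was divided by TMM factors from recovered reads (edgeR 4.0.16), and log2(RPKM + 1) was tested with limma 3.58.1 (trend, two-sided) over the genes passing filterByExpr, with Benjamini-Hochberg adjustment over all of them. Fold changes on this scale understate changes of low genes. A gene could pass filterByExpr through either group alone. Calls needed an absolute log2 fold change above 1 and p below 0.01, the limit of the study's results; its methods give 0.001, which was an alternative. Alternatives were total library size, DESeq2 1.42.0 size factors, pseudocounts of 0.1 and 5, other filters, count tests on recovered reads, length trend, small RNA removal, other p limits, a replicate block and leaving out each library. On simulated data for this comparison, 169 of 175 genes changed by 2 on the log2 scale were called with the true sign, and 38 of the 5229 genes simulated without a change were called. Changed genes that failed the filter on low reads are not among the 175. The simulation gave all genes the same spread and held no length trend or library effects other than depth. Its rates therefore do not carry over to these data. The members, lists and tests were chosen with earlier results of these data known. Named genes were all members and the called genes of the wider list, up to 8 in each direction, and any other gene named with values was chosen after these were seen. Positions are from the GENCODE annotation of GRCm38, and promoters from RefSeq. Whole-number replicate labels did not mark shared animals in the sources used here.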

Additional observations from a re-analysis of the deposited data

How the results depend on the processing

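The median log2 fold change of the members kept its sign under every alternative run. Syvn1 was called in 19 of 20 settings, and Sec61a1 and Man1b1 each in 16; at p below 0.001 no member was called lower. Scaling by total library size, which moved the median of all genes from -0.10 to -0.36, called 10 members, 659 of all genes and 18 of the wider list lower and 234 of all genes higher. edgeR and DESeq2 on recovered reads each called 1 member higher and 5 lower, and 7 of the wider list higher, with 491 genes higher and 412 lower in edgeR and 515 and 393 in DESeq2. At p below 0.001, 194 of all genes were higher (3.42%) and 108 lower (1.9%), with 1 and 3 of the wider list. At an adjusted p below 0.05, 5 of the wider list were lower (all genes, 5.17%). With a pseudocount of 5, 223 genes were lower, and with no filter 852. Leaving out 1 library gave 1 to 6 members lower and 0 to 1 higher, 149 to 748 genes lower, and 2 to 16 lower and 2 to 7 higher of the wider list. Without HFD3, 1 member (Syvn1) was called lower (2.7%, beside 3.13% of all genes). Without LYC2, 5 were (13.2%, beside 6.86%), and without LYC3, 6 were (15.8%, beside 10.5%). Sec61a1 was lost without HFD1, HFD3 or LYC1, and Man1b1 without HFD2 or HFD3 and with a pseudocount of 5. The cause was not tested. In the recount labelled RNA-seq, the test with no filter called 10 members lower and 0 higher, beside 988 genes lower and 645 higher. Leaving out 1 library there gave 2 to 9 members lower and 0 to 2 higher, beside 318 to 577 genes lower and 453 to 691 higher.

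Replicate numbers did not pair the libraries: the deviations of same-numbered libraries had correlations of 0.11, 0.03 and -0.00. With a replicate block, 1 member (Sec61g) was higher and 5 (Sec61a1, Syvn1, Man1b1, Os9 and Pdia4) were lower, beside 392 and 355 of all genes. Genes near 0 changed sign. Canx was -0.22 with total library size and -0.0652 with no filter. P4hb was 0.0081 with DESeq2 size factors, 0.0002 with a pseudocount of 5, 0.0050 with a mean of at least 10 reads, 0.0139 with small RNA genes removed, 0.105 with edgeR, 0.1125 with DESeq2 and 0.0695 with the length trend removed. In edgeR and DESeq2, Sec62 was 0.0019 and 0.0118 and Edem2 0.0567 and 0.0125. With the length trend removed, Sec62 was 0.10, Ssr3 0.0038, Stt3a 0.0254, Pdia3 0.0079 and Derl2 0.0608. Leaving out 1 library, the ranges were Sec62 -0.17 to 0.12, Ssr3 -0.18 to 0.0346, Dad1 -0.73 to 0.26, Stt3a -0.46 to 0.14, Canx -0.21 to 0.39, Pdia3 -0.29 to 0.19, Pdia6 -0.40 to 0.20, P4hb -0.34 to 0.4046, Edem2 -0.47 to 0.38 and Derl2 -0.36 to 0.24. Some members that kept their sign also had wide ranges. Examples are Sel1l (-1.125 to -0.206), Calr (-0.727 to -0.013), Rpn1 (-0.605 to -0.058), Rpn2 (-0.656 to -0.119) and Pdia4 (-1.431 to -0.668). LYC values of low members rest on few reads (3, 1 and 5 for Man1b1, and 6, 7 and 7 for Syvn1). Differences among LYC libraries in such genes were not tested.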
